A study of Mus musculus with 8 samples.

Results

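Long-read intronic models are transcript models that the assembler placed wholly within an intron of a protein-coding gene in HL1 cells, a mouse line of atrial cardiomyocytes derived from a tumour lineage. A model was taken when it carried an assembler name rather than a reference accession, lay on an autosome within a GENCODE M21 (mm10) protein_coding gene of the same strand, touched no annotated exon on either strand and had a TPM (StringTie's length-scaled transcript abundance) above 0 in both long-read replicates. Members were thus selected on their long-read TPM. The rule kept 17083 of the 196683 transcripts in the long-read table, or 8.69%, and they fell in 4090 host genes, 19.7% of the 20807 autosomal protein_coding genes. Where a model lay in more than 1 such gene, as 296 did, the shortest gene was taken as its host. The study fractionated HL1 nuclei with urea and detergent into a soluble nucleoplasm and a chromatin pellet and sequenced the RNA of each. Chromatin RNA was read by nanopore long-read sequencing of cDNA in 2 libraries, and chromatin and nucleoplasm RNA were read by stranded short-read sequencing in 3 libraries each. All 8 libraries came from HL1 cells grown in Claycomb medium with norepinephrine, with no genotype or treatment that differed between them, so every value describes a single cultured line. The titles name 3 short-read libraries as nucleoplasm although another label of those libraries reads chromatin, and the titles were followed.

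Introns are transcribed together with the exons of their gene and are cut out of the precursor RNA by the spliceosome, after which most are degraded quickly. Precursor RNA under synthesis is held at the template by RNA polymerase II, so unspliced introns and other nascent or retained RNA are known to fractionate with chromatin, whereas finished messenger RNA leaves it. Genes with long introns spend longer under transcription than short genes and are known to leave a larger share of their reads in introns. The authors propose that long-read transcripts contained in introns could also stem from limits of the sequencing. They name incomplete assembly at low coverage and oligo-dT priming inside a transcript. Which source applies to the models here was not tested.

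Of 32851 RefSeq windows of 300 bases around a gene start and 1005 RefSeq hairpins (GRCm38.p6), 3 windows and 1 hairpin lay wholly within a model on its strand. Models touch no annotated exon by the rule, so a window or hairpin holding part of a GENCODE exon could not be among them. The small number therefore follows in part from the rule and does not show how often models hold gene starts. The windows and the hairpin are shown because they are letters of the models themselves, each written 5′ to 3′ with runs of 5 or more A or of 5 or more T in capitals.
Gm51431 window, in a Ube2e3 model, chr2:78873795-78874094, plus strand: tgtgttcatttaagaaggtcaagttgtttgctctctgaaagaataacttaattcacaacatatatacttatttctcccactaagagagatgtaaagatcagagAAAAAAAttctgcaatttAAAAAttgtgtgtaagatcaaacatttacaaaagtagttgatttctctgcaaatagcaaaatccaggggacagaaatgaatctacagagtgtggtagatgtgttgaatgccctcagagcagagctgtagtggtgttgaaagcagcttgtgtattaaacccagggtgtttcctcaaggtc
Gm51737 window, in a Gpatch2 model, chr1:187273151-187273450, plus strand: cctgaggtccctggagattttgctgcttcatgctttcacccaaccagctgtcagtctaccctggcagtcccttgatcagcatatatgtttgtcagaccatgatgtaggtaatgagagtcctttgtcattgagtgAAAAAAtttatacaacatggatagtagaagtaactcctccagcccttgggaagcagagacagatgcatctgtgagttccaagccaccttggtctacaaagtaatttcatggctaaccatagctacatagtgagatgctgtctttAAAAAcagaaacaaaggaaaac
LOC108168762 window, in an Rbms1 model, chr2:60896847-60897146, minus strand: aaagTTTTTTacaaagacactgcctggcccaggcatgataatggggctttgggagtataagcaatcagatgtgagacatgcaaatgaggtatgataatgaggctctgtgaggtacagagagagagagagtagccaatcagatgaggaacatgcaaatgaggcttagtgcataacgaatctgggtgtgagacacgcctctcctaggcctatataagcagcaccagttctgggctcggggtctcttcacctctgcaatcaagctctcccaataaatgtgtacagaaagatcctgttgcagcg
Gm51266 hairpin, in an Osbpl8 model, chr10:111185630-111185698, plus strand: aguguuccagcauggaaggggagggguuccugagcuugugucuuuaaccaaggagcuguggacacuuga
The Gm51431 window had a GC content of 36%, the Gm51737 window 43.0% and the LOC108168762 window 47.0%, against a median of 52.7% over all 32851 RefSeq start windows. The Gm51431 and Gm51737 windows each held 2 runs of 5 or more A, and 26.0% of all start windows held at least 1 such run. The LOC108168762 window held 1 run of 5 or more T, and 26.2% of all start windows held one. The Ube2e3 model had 5.47 and 5.23 TPM in replicates 1 and 2, the Gpatch2 model 2.36 and 5.35, the Rbms1 model 0.344 and 3.28, and the Osbpl8 model 1.13 and 5.23.

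The models were short, scarce and mostly alone. The median model covered 1521 bp of the genome, with an interquartile range of 920 to 2535 bp and extremes of 200 and 53705 bp, and overlapping models merged into 17043 separate intervals. Together these intervals covered 9.16% of the exon-free length of the host genes. The median mean TPM of a model was 3.04, with an interquartile range of 2.29 to 4.25, and 97.1% of the models had a mean under 10 TPM. Only 26 models exceeded a mean of 100 TPM. All 17083 models together made up 7.43% of the summed TPM in replicate 1 and 7.36% in replicate 2.

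Because the rule asked for a TPM above 0 in both replicates, the levels of the models are a description and carry no test. Just inside the rule, the lower of a model's replicate values reached down to 6e-06 TPM, with a median of 1.99. Just outside it, 2814 models of the same kind were above 0 in replicate 1 only and 4800 in replicate 2 only, at a median of 3.24 TPM in the replicate that had them. A single value recurred in each library. It was 2.29 TPM in replicate 1, where 648 models held it exactly, and 2.08 TPM in replicate 2, where 743 did, and the next most frequent value was its double in both, 4.58 TPM for 17 models and 4.16 TPM for 15. Only 10.8% of the models in replicate 1 and 11.4% in replicate 2 lay above 3 times the recurring value. The table gives TPM and no reads per model, so no counting interval can be given.

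The replicates differed widely for single models and much less for hosts with many. Of the models, 48.1% agreed within 2-fold between replicates, the SD of their log2 ratio was 1.87, and Pearson's r of log10 TPM across models was 0.09 (17083 models of the same 2 libraries). The SD of the log2 ratio was 2.28 for models with a mean under 3 TPM, 1.38 from 3 to 10 TPM and 1.01 at 10 TPM and over. Summed over a host, the SD fell from 1.97 for the 1754 hosts with 1 model to 0.91 for the 1938 hosts with 2 to 9 and 0.44 for the 398 hosts with 10 or more. Across the 4090 hosts, Spearman's rho between the replicates' summed TPM was 0.80. Both sums of a host hold the same models, each above 0 in both replicates by the rule, and grow with their number. The rho is therefore no separate measure of agreement between the replicates.

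**Figure D1:**
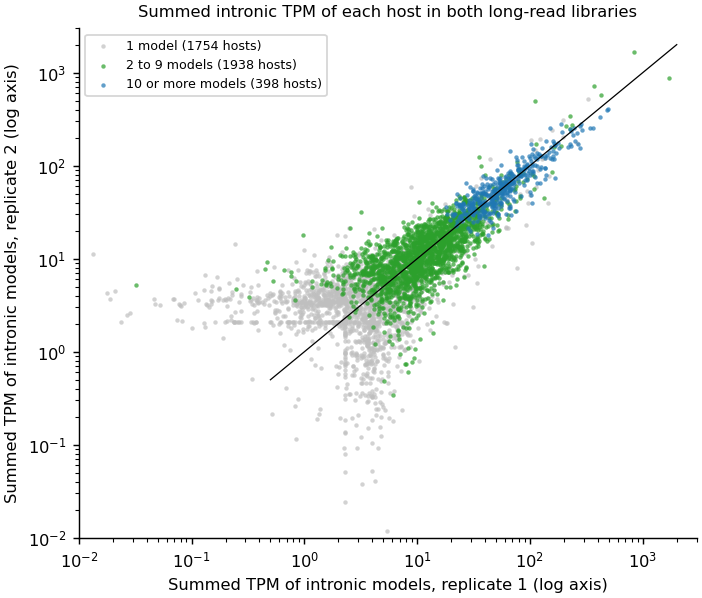
Summed TPM of the intronic models of each host in long-read replicate 1 (x axis, log) and replicate 2 (y axis, log), 1 point per host, coloured by its number of models; the line marks equal values and 8 hosts fall outside the axes. Hosts with 1 model scatter widely, and hosts with 10 or more lie close to the line.

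Models were spread very unevenly over hosts. The median host held 2 models and 42.9% of hosts held 1, while the 398 hosts with 10 or more held 8088 models, 47.3% of all. The 100 hosts with most models held 3998, or 23.4%. The share of genes that were hosts rose with gene length. Of genes under 10 kb, 95 of 7287 (1.3%) were hosts, against 16.8% of genes of 10 to 30 kb, 36.8% of genes of 30 to 100 kb, 47.2% of genes of 100 to 300 kb and 48.6% of genes of 300 kb and over. The median number of models per host rose over the same groups from 1 to 1, 2, 5 and 8, and the median summed TPM from 3.4 to 4.43, 7.66, 17.5 and 41.7. Hosts had a median span of 52.3 kb and the other genes one of 12.7 kb.

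Across the hosts, Spearman's rho between models and span was 0.55 and that between summed TPM and span was 0.51. These are correlations across genes of the same 2 libraries, which are not independent replicates. Per length the order turned around. The median host held 13.4 models per 100 kb of span among genes under 10 kb and 1.67 among genes of 300 kb and over, which follows from the minimum of 1 model that makes a gene a host. Over all genes of a group, hosts or not, the number of models per 100 kb of exon-free sequence was 0.54 under 10 kb, 1.69 from 10 to 30 kb, 2.2 from 30 to 100 kb, 2.15 from 100 to 300 kb and 1.48 from 300 kb up. In the largest group the hosts had a median chromatin level of 266 normalised counts per kb of exon and the other genes one of 0.354. Over all genes, hosts had the higher median level in each span group. Among genes with a mean of at least 100 normalised counts the medians were closer. Hosts had 333 and genes with no model 274 under 10 kb, 395 and 303 from 10 to 30 kb, and 484 and 459 from 30 to 100 kb. From 100 to 300 kb they had 482 and 454, and from 300 kb up hosts were lower, at 430 against 700.

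**Figure D2:**
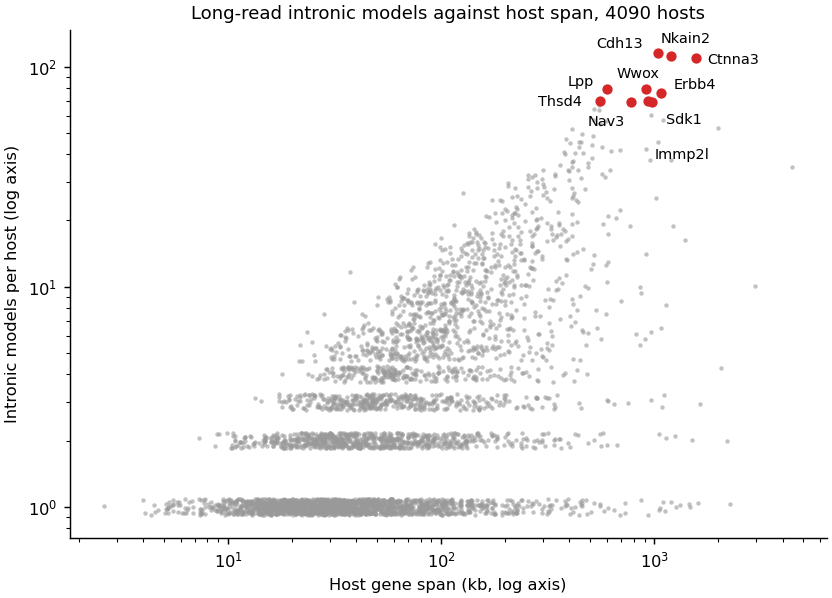
Number of intronic models (y axis, log, small vertical shifts added to the grey points so that they can be told apart) against span of the host gene in kb (x axis, log), 1 point per host. The 10 hosts with most models are in red and span 555.1 to 1573.6 kb.

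The 10 hosts with most models held 848 of them, 4.96% of the total, and were all long genes. Models covered between 15.8% and 42.4% of their exon-free sequence. Cdh13 (chr8:118283733-119324921, plus strand), which encodes the membrane-anchored T-cadherin, held 115 models with a summed TPM of 489.8 in replicate 1 and 402.6 in replicate 2. Nkain2 (chr10:31689310-32890462, minus strand), a partner of the sodium pump, held 112 with 481.1 and 397.8 TPM. Ctnna3 (chr10:63430098-65003667, plus strand), the alpha-catenin of cardiac cell junctions, held 109 with 419.96 and 336.9 TPM. Lpp (chr16:24393507-24992578, plus strand), a LIM protein of focal adhesions, held 79 with 365.1 and 255.4 TPM. Wwox (chr8:114439655-115352708, plus strand), a WW domain oxidoreductase, also held 79, with 290.2 and 243.7 TPM. Erbb4 (chr1:68032186-69108059, minus strand), a neuregulin receptor of cardiomyocytes, held 76 with 276.1 and 266.3 TPM.

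The last 4 of the 10 were close to one another. Immp2l (chr12:41024090-41955588, plus strand), which encodes a peptidase subunit of the inner mitochondrial membrane, held 70 models with a summed TPM of 225.3 and 247.9. Thsd4 (chr9:59966931-60522046, minus strand), a microfibril-associated protein, held 70 with 338.1 and 253.2 TPM. Nav3 (chr10:109681259-110456204, minus strand), a neuron navigator protein, held 69 with 232.1 and 237.6 TPM. Sdk1 (chr5:141241490-142215586, plus strand), an adhesion protein of the immunoglobulin superfamily, held 69 with 246.1 and 254.1 TPM. The sum was higher in replicate 1 for 7 of the 10 hosts. No single model made these sums. The strongest model of the 10 hosts reached a mean of 20.51 TPM, in Nkain2, and the median model of each host had between 2.92 TPM (Wwox) and 3.64 TPM (Cdh13).

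The annotated transcripts of these hosts had a lower summed TPM than their intronic models in the same libraries. Summed over its reference transcripts, Nkain2 had 3.34 and 2.41 TPM, Erbb4 1.99 and 2.78, Immp2l 1.58 and 1.76, and Ctnna3 6.01 in replicate 1 and 0 in replicate 2. Cdh13 stood higher, at 62.7 and 56.7 TPM, and Lpp at 31.3 and 31.0, in both genes above the strongest single intronic model, whose mean was 10.04 and 15.11 TPM. Of the 398 hosts with 10 or more models, 392 had a larger summed TPM in intronic models than in reference transcripts. So did 2411 of all 4090 hosts (58.9%). In 262 hosts the reference sum was 0 in both replicates. A host to which no reference transcript could be matched was also counted at 0, so these numbers include any such hosts. A host's intronic sum adds the TPM of separate models, and how many RNA molecules of the gene they stand for was not tested.

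Models became scarcer towards the end of the hosts. Cut into 5 equal parts from the annotated start, the hosts held 23.0%, 22.9%, 21.5%, 19.2% and 13.3% of the models in successive parts, against 20.4%, 20.8%, 20.6%, 20.3% and 18% of the exon-free sequence. The last part held a smaller share of the models than of the sequence in each of the 5 span groups, for example 7.79% against 12.9% from 10 to 30 kb and 15.3% against 19.3% from 300 kb up. The median mean TPM was 3.07 in the first part and 2.95 in the last. The first gap between a host's own exons held 19.1% of the models, and its length came to 17.4% of the exon-free length. Such a gap can hold exons of other genes, which the exon-free length leaves out. The median model began 48.5 kb from its host's start. It took up 7.14% of the gap between its host's exons that held it, and 228 models covered at least 90% of theirs.

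In the 121 hosts with 20 or more models, the first model began at a median of 1.9% of the span and the last at 96.0%. Of these hosts 4 had no model in the first 25% of their length, and in 5 the last model began before 75%. These were Zfhx3, whose 24 models began 774 kb into a gene of 1019 kb, Sgcd, whose 58 began 611 kb into 1093 kb, Celf2, whose 57 began 444 kb into 969.9 kb, and Ank3, whose 43 began 215 kb into 628.7 kb. Sgcd encodes a sarcoglycan of the muscle membrane, Celf2 a splicing regulator and Ank3 an ankyrin of the membrane skeleton. Zfhx3, a homeobox factor, was outside the naming rule and was singled out after its values were seen. The 5 hosts with an early last model were Fars2 (61.3% of the span), Ttc28 (62.4%), Adk (65.1%), Smyd3 (70.9%) and Cdkal1 (73.0%), all but Smyd3 likewise singled out afterwards. Opposite-strand models before the first same-strand model numbered 3 in Zfhx3, 0 in Sgcd, 1 in Celf2 and 3 in Ank3.

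**Figure D3:**
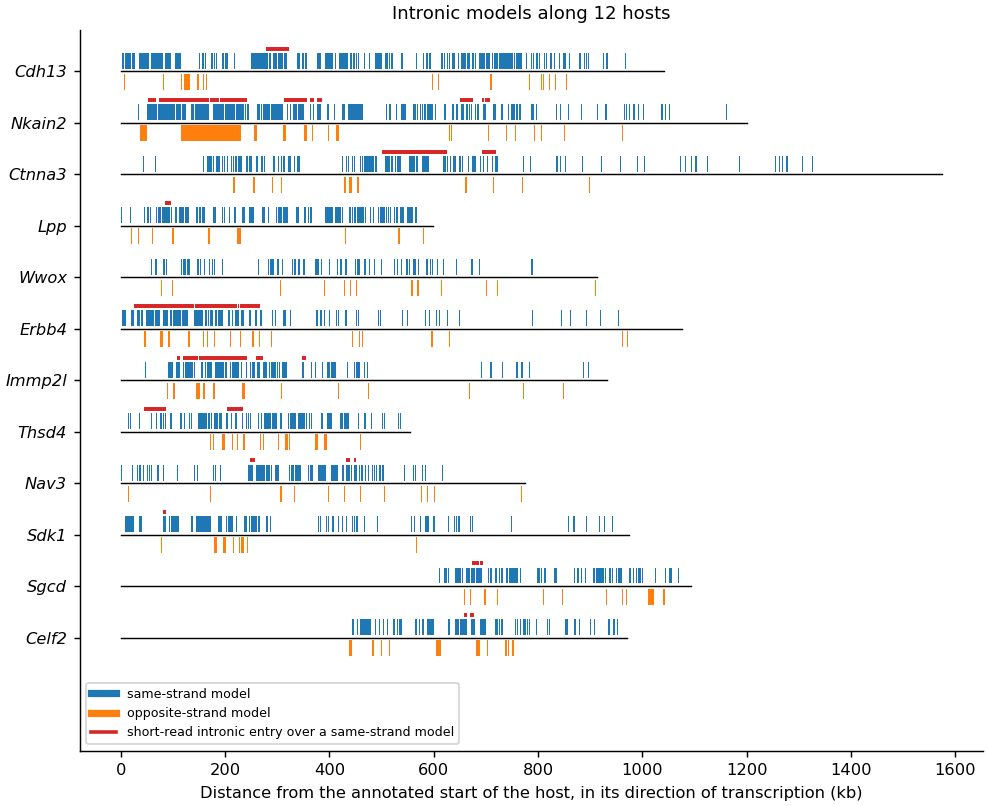
Intronic models along the 10 hosts with most models and along Sgcd and Celf2, each drawn from the annotated start of the host (x axis, kb, in its direction of transcription). Blue bars above each line are same-strand models, orange bars below it opposite-strand models, and red lines short-read intronic entries that overlap same-strand models; models are spread along the first 10 genes, while those of Sgcd and Celf2 begin 611 and 444 kb in.

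The hosts with the highest summed TPM formed a different kind of list, because in 6 of its 10 members 1 model carried nearly all of the sum. Def8 had 1705.7 and 885.2 TPM in replicates 1 and 2, of which a model at chr8:123425803-123434600 (plus strand) gave 1588 and 779.0. Filip1l had 839.5 and 1674 TPM, of which a model of 14008 bp at chr16:57391103-57405110 (plus strand) gave 832.4 and 1661. Camk1d, a calmodulin-dependent kinase, had 370.1 and 725.9 TPM, of which a model of 337 bp at chr2:5379040-5379376 (minus strand) gave 342.4 and 681.6. The Def8 sum was the higher in replicate 1 and the other 2 sums in replicate 2.

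Vmn2r38, a vomeronasal receptor gene of a large family of near-identical copies, had 427.1 and 579.7 TPM, of which a model of 531 bp at chr7:9076041-9076571 (minus strand) gave 399.9 and 537.3. Its reads may belong to other copies, so its place is uncertain. Sectm1a had 327.3 and 515.3 TPM from 1 model at chr11:121070134-121074852 (minus strand), which was overlapped by 2 opposite-strand models reaching 1436 and 2165 TPM. Short-read entries at the strongest Camk1d, Cmss1 and Filip1l models varied more than 10-fold between nucleoplasm libraries. Whether the reads of these 3 models arose at these places was not tested. Cmss1 had 110.4 and 490.0 TPM, of which a model of 574 bp at chr16:57391103-57391676 (minus strand) gave 101.3 and 479.5. That model lies wholly within the stretch of the Filip1l model, on the other strand. The strongest Def8 model was overlapped by 5 opposite-strand models of up to 668.0 and 830.4 TPM. The remaining 4 hosts of this list were Cdh13, Nkain2, Ctnna3 and Lpp. The 10 strongest models of all gave 6.0% of the intronic TPM of replicate 1 and 7.78% of that of replicate 2.

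Among hosts with 10 or more models, density picked out shorter genes. Cfap97d2 had 32.0 models per 100 kb, but its 12 models overlapped one another in 1 interval and faced 10 opposite-strand models. Atxn10, the gene of ataxin 10, held 25 models in 127 kb, or 19.7 per 100 kb, with 89.2 and 98.2 TPM. Plppr5 held 20 (17.4 per 100 kb, 68.8 and 65.7 TPM), Trim37, a ubiquitin ligase, 16 (17.1 per 100 kb, 52.8 and 72.0 TPM) and Gpbp1 11 (17.1 per 100 kb, 30.8 and 31.3 TPM). In those 4 genes no 2 models overlapped, and the models covered between 31.6% (Trim37) and 42.3% (Atxn10) of the exon-free sequence.

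The most similar set was the 8195 models of the same kind on the strand opposite to their gene. Their median length was 1186 bp and their median mean TPM 3.09, close to the 1521 bp and 3.04 TPM of the same-strand models, and they took 6.1% and 6.4% of the TPM of replicates 1 and 2. Same-strand models made up 67.6% of both kinds together and 81.0% in the hosts with 10 or more, where 8088 stood against 1896. Of those 398 hosts, 2 had at least as many opposite-strand as same-strand models. Of the same-strand models 119 (0.697%) overlapped an opposite-strand intronic model. The nanopore cDNA reads do not record which strand the RNA came from, and whether some of these models belong to the other strand was not tested. Short reads, which do record it, gave an intronic locus of the same strand over 675 models (3.95%) and one of the opposite strand over 148 (0.866%), and among models of 10 TPM and over the first share was 12.1%.

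Summed over all entries, the short-read libraries had between 91657034 and 121773350 StringTie counts, recovered from the normalised counts. Of 12 atrial cardiomyocyte markers 10 had a matched entry, all with means of at least 10 normalised counts, although Nppa, the atrial natriuretic peptide, averaged only 48.6. Their summed level was 410500.0 to 628400.0 in chromatin and 242700.0 to 384900.0 in nucleoplasm, lowest in replicate 3 of each fraction. All 4 fibroblast markers reached 10, led by the collagens Col1a1 and Col3a1 with means of 183600.0 and 48920.0, and their summed level was 120600.0 to 173700.0 in chromatin and 253700.0 to 460500.0 in nucleoplasm, highest in replicate 3 of each. Of the endothelial markers Cdh5 was at 0 in all 6 libraries, while Kdr, Tek and Pecam1 averaged 1722, 275.6 and 87.9, and the summed level was 1078 to 1942 in chromatin and 1788 to 3023 in nucleoplasm. Of the leukocyte markers Adgre1 was at 0 and Ptprc averaged 1.69, while Cd68 averaged 67.2, and the summed level was 56.9 to 149.9 in chromatin and 39.4 to 58.7 in nucleoplasm. The smooth muscle markers Myh11 and Cnn1 averaged 524.7 and 143.9, with sums of 427.6 to 777.4 in chromatin and 528.6 to 1191 in nucleoplasm, and Tagln had no matched entry. The part of these differences in the host ratios was not tested, and in bulk RNA fewer cells of a type and less RNA per cell cannot be told apart.

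The short reads compared each host between chromatin and nucleoplasm, values that the rule had not used. The models were selected on long reads of chromatin RNA alone, with no nucleoplasm counterpart, so hosts and intronic entries over models were picked for presence in chromatin, and their counts of calls are given as a description. A gene's value was the sum of its short-read entries in DESeq2-normalised counts. Without pairing libraries by replicate number, limma was fitted to log2(count + 1) over 30200 gene sums. Its p-values were adjusted by Benjamini-Hochberg, with a threshold of 0.05. Of the 4090 hosts 3799 could be tested, 250 having no matched entry and 41 being at 0. Of those tested, 1340 (35.3%) were higher in chromatin and 1222 (32.2%) were lower, and 231 (6.08%) were higher by more than 4-fold. Among all autosomal protein-coding genes the percentages were 24.9 higher, 33.3 lower and 6.99 higher by more than 4-fold, and among all gene sums 31.8, 25.6 and 16.8. The median log2 ratio was 0.04 in hosts, -0.11 in all autosomal protein-coding genes and 0.34 in all gene sums. Scaling the libraries to equal totals of the ERCC spike-in RNAs moved the median of all gene sums by 0.46 and gave 1993 hosts higher and 267 lower, so that 88.2% of the calls were higher instead of 52.3%. Directions near 0 therefore hold relative to the authors' size factors.

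The ratio climbed with the number of models. The median log2 ratio was -0.18 in genes with no model, -0.14 with 1, -0.02 with 2 to 4, 0.20 with 5 to 9, 0.64 with 10 to 19 and 1.11 with 20 or more. Over the same groups the percentage called higher in chromatin rose from 21.5 to 28.1, 33.6, 41.0, 59.0 and 67.8, and the percentage called lower went from 33.7 to 37.6, 35.0, 23.8, 15.9 and 4.24. Span rose too, from a median of 12.7 kb with no model to 401 kb with 20 or more. Level rose likewise, from 11.5 to 944 normalised counts per kb of exon in chromatin.

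At equal span, hosts and other genes had nearly the same ratio. Among genes with a mean of at least 100 normalised counts, the median log2 ratio was -1.23 in hosts and -1.23 in the others under 10 kb, -0.52 and -0.54 from 10 to 30 kb, -0.03 and -0.02 from 30 to 100 kb, 0.45 and 0.36 from 100 to 300 kb, and 0.93 and 1.05 from 300 kb up. In the largest group 65.1% of 209 hosts and 58.7% of 63 other genes were called higher. Across the 3799 hosts, Spearman's rho with the log2 ratio was 0.20 for the number of models and 0.37 for span, and with the ranks of span taken out the first became -0.003. Within span groups it was -0.03 from 10 to 30 kb, 0.003 from 30 to 100 kb, 0.12 from 100 to 300 kb and 0.13 from 300 kb up. These points share the 6 short-read libraries and the 2 long-read libraries, and no test was made of them.

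**Figure D4:**
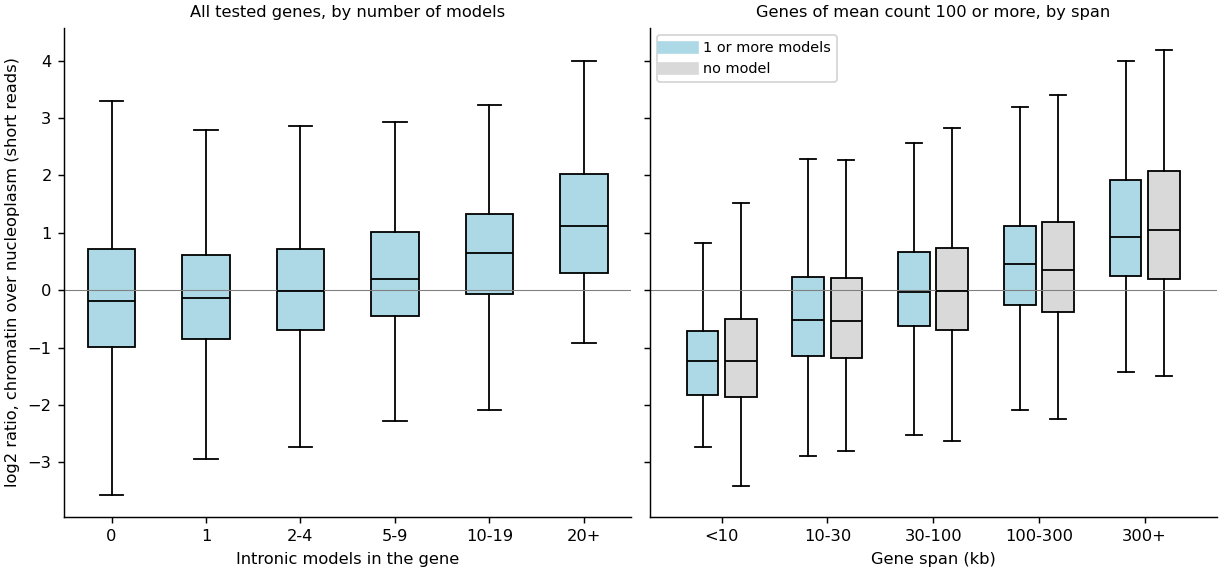
Short-read log2 ratio of chromatin over nucleoplasm (y axis) of autosomal protein-coding genes, by number of intronic models (left, all tested genes) and by span in kb (right, genes with a mean of at least 100 normalised counts, hosts in blue and genes with no model in grey); boxes give quartiles, whiskers reach up to 1.5 times the box height and points beyond are not drawn. The ratio rises across both panels, and the blue and grey boxes of a span group have nearly the same medians.

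The 10 hosts with most models did not share a direction. Ctnna3 had 39526, 35825 and 17215 normalised counts in the chromatin libraries and 3086, 2522 and 1543 in the nucleoplasm libraries, a log2 ratio of 3.66 ± 0.39 (SE, limma adjusted p = 0.000267). Wwox had 26286, 24669 and 29838 against 1986, 1848 and 2757, a log2 ratio of 3.63 ± 0.17 (limma adjusted p = 1.42e-05). Thsd4 had 63866, 59790 and 75185 against 12986, 12857 and 18157, a log2 ratio of 2.19 ± 0.18 (limma adjusted p = 8.06e-05). In these 3 genes the chromatin values lay far above the nucleoplasm values. Nav3 had 3641, 3476 and 1901 against 1557, 1447 and 776.2, a log2 ratio of 1.26 ± 0.35 (limma adjusted p = 0.021), a call that was lost without chromatin replicate 1 (1.09, limma adjusted p = 0.0909) or 2 (1.13, limma adjusted p = 0.0796). Nkain2 had 1360.0, 1315 and 1837 against 705.4, 705.9 and 694.3, a log2 ratio of 1.08 ± 0.15 (limma adjusted p = 0.000792). Lpp had 71948, 70670 and 51620 against 46988, 43117 and 32773, a log2 ratio of 0.66 ± 0.20 (limma adjusted p = 0.0281). The Lpp call was lost without chromatin replicate 1 or 2 or without nucleoplasm replicate 2 or 3, at log2 ratios of 0.58, 0.59, 0.71 and 0.51 and limma adjusted p-values of 0.103, 0.0929, 0.0559 and 0.0678. It was lost with quantile normalisation too (0.16, limma adjusted p = 0.561).

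The other 4 did not pass the test as higher. Erbb4 had 2792, 2747 and 3843 normalised counts in chromatin and 1929, 1719 and 2679 in nucleoplasm, a log2 ratio of 0.58 ± 0.21 (limma adjusted p = 0.0536). With the replicate number as a block the ratio was called (limma adjusted p = 0.000865), as it was without nucleoplasm replicate 3 (0.76, limma adjusted p = 0.0151), with quantile normalisation (limma adjusted p = 0.0245), at a mean count of at least 10 (limma adjusted p = 0.0426) and in DESeq2 (adjusted p = 0.0197). Immp2l had 256.1, 228.5 and 296.6 against 176.8, 190.6 and 245.7, a log2 ratio of 0.35 ± 0.18 (limma adjusted p = 0.14), which was called with the block (limma adjusted p = 0.0304) and without nucleoplasm replicate 3 (0.49, limma adjusted p = 0.0474). In both genes replicate 3 was the highest of each fraction. The fractions did not overlap in Erbb4, and in Immp2l they did through nucleoplasm replicate 3, which lay above chromatin replicate 2.

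Sdk1 had 3905, 3883 and 3298 against 5052, 4842 and 4127, a log2 ratio of -0.34 ± 0.12 (limma adjusted p = 0.0486). That call was lost when any library other than nucleoplasm replicate 3 was left out, namely chromatin replicate 1 (-0.38, limma adjusted p = 0.0764), 2 (-0.38, limma adjusted p = 0.0747) or 3 (-0.26, limma adjusted p = 0.0994) and nucleoplasm replicate 1 (-0.28, limma adjusted p = 0.159) or 2 (-0.31, limma adjusted p = 0.142), and the sign turned with ERCC scaling (0.40, limma adjusted p = 0.086). Quantile normalisation (limma adjusted p = 0.0552) and a fit without the mean-variance trend (limma adjusted p = 0.106) lost it as well. Cdh13 had 8963, 10281 and 5675 against 16830, 17489 and 8543, a log2 ratio of -0.76 ± 0.34 (limma adjusted p = 0.106). The blocked fit called it lower (limma adjusted p = 0.000826), as did the fit without nucleoplasm replicate 3 (-1.09, limma adjusted p = 0.0169). Within each replicate number the chromatin value of Cdh13 was below the nucleoplasm value.

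Among the 387 hosts with 10 or more models and a mean of at least 100 normalised counts, 240 (62.0%) were higher in chromatin and 48 (12.4%) lower, with a median log2 ratio of 0.76. Long genes with no model at that level had similar shares. From 100 to 300 kb 45.1% of them were higher and 18.1% lower, and from 300 kb up 58.7% and 9.52%. At the upper end were Rasgef1b, an exchange factor for Ras-family proteins (45 models), at 3.99 ± 0.38 (SE, limma adjusted p = 0.00017), Rad51b, a recombination gene (48 models), at 3.98 ± 0.20 (limma adjusted p = 1.67e-05), and Smyd3, a lysine methyltransferase (40 models), at 3.68 ± 0.16 (limma adjusted p = 1.22e-05), followed by Ctnna3 and Wwox. Rad51b had 19130, 17775 and 22033 normalised counts in chromatin and 1215, 962.4 and 1624 in nucleoplasm. Smyd3 had 47437, 42581 and 49628 against 3628, 2962 and 4419. At the lower end stood Ndufaf2 and Ndufs4, an assembly factor and a subunit of respiratory complex I with 14 models each, at -2.09 ± 0.13 (limma adjusted p = 3.38e-05) and -1.50 ± 0.10 (limma adjusted p = 4.71e-05). Ndufaf2 had 198.2, 200.2 and 190.5 in chromatin and 806.4, 745.5 and 974.1 in nucleoplasm. The others were Itfg1 (11 models) at -1.41 ± 0.08, Lamc1, a laminin subunit (12 models), at -1.37 ± 0.16, and Sdc2, the proteoglycan syndecan 2 (11 models), at -1.30 ± 0.10, with limma adjusted p-values of 2.6e-05, 0.000434 and 6.87e-05. With ERCC scaling Sdc2 was no longer called (-0.57, limma adjusted p = 0.0709). These 8 genes were picked for extreme ratios in these same libraries. That their chromatin and nucleoplasm libraries did not overlap is therefore no separate result.

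Short reads were also assembled inside the introns themselves, as loci that belong to no gene. Among the short-read entries that lie within an intron on the strand of the gene and touch no exon, 297 overlapped at least 1 long-read model, in 201 hosts, and 453 overlapped none. All 297 could be tested, and 252 (84.8%) were higher in chromatin, 240 (80.8%) of them by more than 4-fold, while 11 (3.7%) were lower. The percentages over all 35830 short-read entries tested were 26.9 higher, 15.7 higher by more than 4-fold and 20.9 lower. The median log2 ratio was 3.9 with quartiles of 3.33 and 4.15, against 0.38 over all entries. The 448 tested intronic entries that overlapped no model had a median of 3.63, with 79.5% higher and 7.59% lower. A high ratio was thus common to intronic entries with and without a model. The entries over models were longer and more abundant, with medians of 9.19 kb and 2803 normalised counts in chromatin against 2.97 kb and 364 counts.

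Length divided these entries. Of the 147 of 10 kb and over, 145 were higher in chromatin, at a median log2 ratio of 4.04, and of the 91 from 1 to 10 kb 88 were higher and 2 lower, at 3.86. Of the 59 under 1 kb, 19 were higher and 9 lower, at a median of 0.68. Several short entries varied enormously between nucleoplasm libraries. In 7 of the 297 the highest nucleoplasm value was more than 10 times the lowest, in 5 of them with replicate 1 on top. The entry over the Cmss1 model had 16131, 148360.0 and 10637 normalised counts in chromatin and 4953700.0, 306790.0 and 650830.0 in nucleoplasm, and the entry over the Camk1d model 837.6, 12101 and 1714 against 433310.0, 19723 and 44857. Short entries in Cdk8 (26793, 90419 and 6400.5 against 1766500, 183820 and 286670) and Gphn (238.86, 6291.1 and 1212.5 against 355030, 9343.8 and 22620) likewise peaked in chromatin replicate 2 and nucleoplasm replicate 1. The 576 bp entry at the start of the Filip1l model went another way, with 182960.0, 275330.0 and 401890.0 against 13563, 1134400.0 and 235520.0, at a log2 ratio of 0.83 ± 1.56 (SE, limma adjusted p = 0.679). A short Tmtc2 entry (32967, 44201 and 58557 against 424.42, 198340 and 35283) had the same order of libraries. Whether such entries of different genes share a source was not tested. Without nucleoplasm replicate 1 the lower entries numbered 5 instead of 11, and without chromatin replicate 1 or nucleoplasm replicate 3 they numbered 7. Outside those 7 entries 252 were higher and 9 lower, with a median of 3.9.

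Set beside its own host, an intronic entry usually had the higher chromatin to nucleoplasm ratio. Over the 190 hosts with both values the median log2 ratio was 3.79 for the entries and 0.60 for the host, and the entries lay above the host in 165. Among the named hosts 19 had such entries. In Cdh13, 1 entry of 44 kb over 5 models had 50733, 46622 and 33471 normalised counts in chromatin and 2953, 2371 and 2461 in nucleoplasm, a log2 ratio of 4.05, whereas the gene's own ratio was -0.76. In Nkain2, 13 entries of 280.0 kb in all had 173030.0, 150680.0 and 203150.0 against 10320.0, 7738 and 14358, a ratio of 4.06 against 1.08 for the gene, whose own counts were far lower.

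Immp2l showed the same contrast, with 6 entries at 36247, 32451 and 38746 normalised counts against 2123, 1662 and 2805, a log2 ratio of 4.06 against 0.35 for the gene. Erbb4, with 5 entries, stood at 3.61 against 0.58, Sdk1, with 1, at 4.38 against -0.34, and Lpp, with 1, at 4.0 against 0.66. In Ctnna3 and Rad51b the entries (4.02 and 4.25) and the gene (3.66 and 3.98) were close, and in Rasgef1b the entries were below the gene (3.72 against 3.99). Apart from the short entries in Cmss1, Camk1d and Filip1l, the entries of these hosts lay between 3.36 (Kcnj3) and 4.38 (Sdk1), while the host genes ranged from -0.76 to 3.99. The difference of the 2 log2 ratios was positive in 16 of the 19 hosts, and in 17 the chromatin and nucleoplasm libraries did not overlap in it, among them Cmss1 and Rasgef1b with a negative difference. With 3 libraries against 3, a two-sided exact permutation test of this difference cannot fall below p = 0.1, the value it took in those 17 hosts, against 0.2 in Camk1d and 0.9 in Filip1l.

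**Figure D5:**
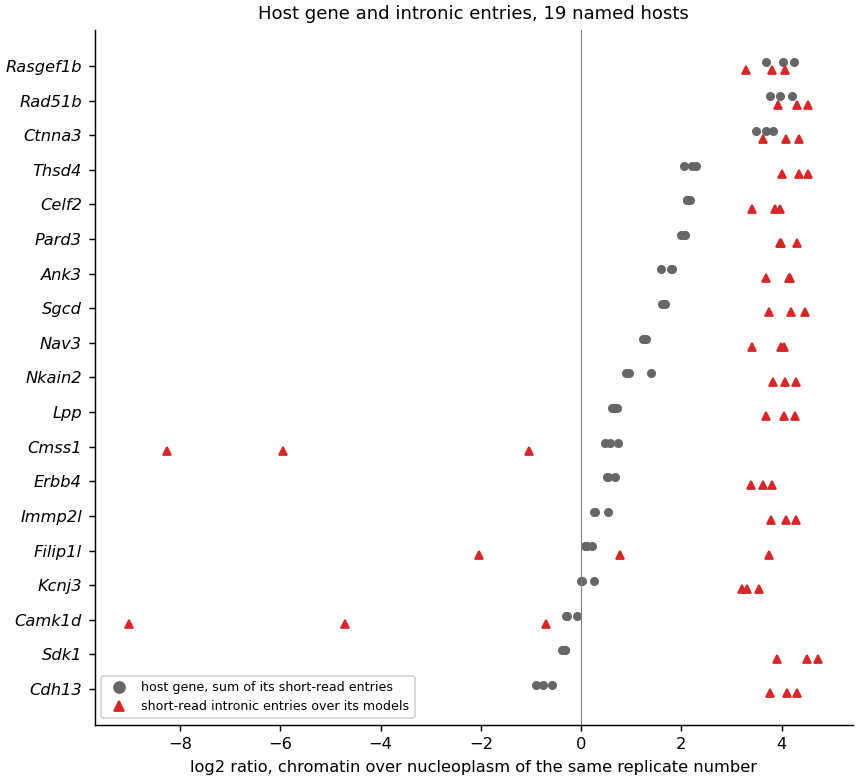
Log2 ratio of chromatin over nucleoplasm within each replicate number (x axis) for 19 named hosts (y axis), with grey circles for the host gene and red triangles for the summed short-read intronic entries over its models, 3 points each. Red triangles gather near 4 in most hosts wherever the grey circles lie, except in Cmss1, Filip1l and Camk1d, where they scatter.

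The gene lists differed in how many of their members were hosts. Of 20 cell adhesion and membrane skeleton genes, 13 were hosts with 296 models, and 8 of these 13 were higher in chromatin and 3 lower, with a median log2 ratio of 1.58, beside 12 and 4 of all 20 at 0.84. Of autosomal protein-coding genes 19.7% were hosts, and the shares called higher were 24.9% of those genes and 35.3% of hosts. Every list is to be read against these shares and its span, because both rose with span. The median span was 17.6 kb over autosomal protein-coding genes and 290 kb in this list. It was 129 kb for ion channels and calcium handling, 140 kb for cardiac transcription factors, 122 kb for chromatin regulators and 32.4 kb for splicing regulators. Ctnna3, Pard3 (59 models, a polarity protein), Sgcd (58) and Ank3 (43) held most models of the adhesion list, and the last 3 were higher at 2.04, 1.65 and 1.73. Pard3 had 149.8 and 252.7 TPM in its models, Sgcd 265.6 and 170.6, and Ank3 181.9 and 154.1. Of 20 ion channel and calcium handling genes, 11 were hosts with 92 models, 6 higher and 1 lower at a median of 0.94, beside 7 and 2 of all 20 at 0.18. Cacna1d, an L-type calcium channel (31 models), was higher at 2.86, a call lost without chromatin replicate 1 (2.49, limma adjusted p = 0.0791) or 2 (2.5, limma adjusted p = 0.0683). Cacna2d1, an auxiliary calcium channel subunit (23 models), was higher at 0.94, and Kcnj3, a potassium channel of the atrium (20 models), gave 0.09 ± 0.37 (limma adjusted p = 0.846).

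Of 20 cardiac transcription factors, 12 were hosts with 66 models. Of the 11 tested 7 were higher and the other 4 did not pass the test, at a median log2 ratio of 1.64, beside 11 higher and 1 lower of the 18 tested in the whole list at 1.55. Most models lay in Nfib (14 models, 1.94), Mef2a (11, 0.79), Foxp1 (10, 2.66) and Zfpm2 (9, 2.88). The Mef2a call was lost with quantile normalisation (0.36, limma adjusted p = 0.123). Of 24 chromatin regulators, 12 were hosts with 79 models, 8 higher and 1 lower at a median of 1.06, beside 17 and 1 of all 24 at 0.96. The deacetylase Hdac4 (21 models, 2.44), Chd9 (12, 1.31) and the demethylase Kdm4c (12, 1.70) held most models. Of 22 splicing regulators, 5 were hosts with 70 models, of which Celf2 held 57, and all 5 were higher at a median of 1.80, beside 13 higher and 1 lower of the 19 tested in the whole list at 1.13. Celf2 stood at 2.13, Mbnl2 (8 models) at 1.80 and Qk (3 models) at 1.13.

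Few models fell in sarcomere and ribosomal protein genes, whose median spans were 25.9 and 3.4 kb. Of 20 sarcomere and Z-disc genes 7 were hosts with 13 models, and 4 of the 7 were higher, at a median log2 ratio of 1.74, beside 6 higher and 3 lower of the 17 tested in the whole list at 0.24. Cmya5 (4 models) was higher at 2.39 and Actn2, the alpha-actinin of the Z-disc (2 models), at 2.92. Of 76 cytosolic ribosomal protein genes 2 were hosts with 4 models, Rpl11 and Rps14. Of the 65 of the list tested 62 were lower in chromatin, at a median of -2.27, and Rps14 stood at -2.62.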

How the data were processed

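The authors extracted chromatin and nucleoplasm RNA from HL1 nuclei. Short reads of 50 bp were aligned with HISAT2 (2.1.0) and assembled with StringTie. The deposited values are DESeq2-normalised counts per entry, here a signal: StringTie counts divided by a size factor per library. Long reads were aligned with minimap2 and assembled with StringTie in its long-read mode, and the deposited table holds TPM per transcript, made by the authors from reads that were not stranded. The minimum read quality was set lower for long-read replicate 1 than for replicate 2. The authors filtered replicate 1 to match for comparing coverage between replicates. Whether the deposited TPM used that filter is not known here. Replicates were not pooled. The mm10 build was named in the sources and GENCODE M21 supplied genes and exons.

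Members and lists were chosen with earlier results of these data known. A host is the shortest same-strand protein_coding gene that contains the model. Short-read entries were matched to genes by accession (75.3% of 44536) or, for assembled loci, by a span overlap (Jaccard index) of at least 0.5 on the same strand (65.8% of 20637). Values were taken as log2(normalised count + 1) and fitted in limma (3.58.1, R 4.3.3), allowing the variance to follow mean level. This log2 scale understates changes of low genes. Features above 0 in at least 1 library entered, with p-values adjusted by the Benjamini-Hochberg method. The script was tested on simulated data with no replicate effect and with changes only in genes of a mean of at least 100. That test does not cover the spread between the replicates here. Every deposited short-read value was a whole multiple of 1 step per library (tolerance 0.0001, 100.0% of values). As alternatives, edgeR (4.0.16) and DESeq2 (1.42.0) were therefore run on the recovered counts. edgeR called 8497 gene sums higher and 7988 lower in chromatin, and DESeq2 8581 and 7626. Replicates of a fraction differed beyond sampling noise. Same-numbered libraries of the fractions deviated together from the fraction means, with correlations of 0.20, 0.19 and 0.46. Chromatin replicate 2 correlated as well with nucleoplasm replicate 1 (0.20). At a mean count of at least 10 it correlated more with nucleoplasm replicate 1 (0.33) than with replicate 2 (0.28). The pairing of numbers 1 and 2 is therefore uncertain, and with it the blocked calls. The numbers were taken to pair the samples in the blocked fits, while the main fit was unpaired.

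Named hosts were the 10 with most models, the 10 with the highest summed TPM, and, among hosts with 10 or more models, the 5 with most models per 100 kb and, at a mean of at least 100 normalised counts, the 5 highest and 5 lowest log2 ratios. Added to these were the hosts of the 5 strongest models and the 4 members of each gene list with most models. A gene that this rule names is not reported here.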

Additional observations from a re-analysis of the deposited data

How the results depend on the processing

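The numbers of models and hosts stayed within 1.5 times under every definition tried, from 13104 models in 3640 hosts at 1 TPM or more in both replicates to 25278 in 5850 with either strand, and leaving out a long-read replicate gave 19897 to 21883 models in 4490 to 4760 hosts. At least 9 of the 10 hosts with most models stayed in that list, but their order moved, with Nkain2 first at 1 TPM or more (89 models against 88 in Cdh13) and with either strand (142 against 133), Ctnna3 first without long-read replicate 2 (133) and tied with Cdh13 without replicate 1 (127). Spearman's rho of models with span was 0.541 at 1 TPM or more and 0.535 to 0.546 without a replicate. Its value with the short-read ratio was 0.217 at 1 TPM or more and 0.157 to 0.215 without a library. Hosts lower in chromatin numbered 267 with ERCC scaling and 1044 to 1217 without a library, and hosts higher 1189 to 1384. The median host differed from the median of all gene sums by -0.303 in the log2 ratio, which became -0.0444 with ERCC scaling, -0.0716 with a pseudocount of 10, 0.0303 with a mean count of at least 10 and 0.0948 with quantile normalisation, and -0.378 to -0.181 without a library. Intronic entries higher numbered 247 to 254 and lower 5 to 11 without a library, and 2 were lower with ERCC scaling. The median ratio of the entries was 4.6 with ERCC scaling, 3.76 to 3.97 without a library and 3.42 for the 131 entries at least 0.5 covered by a model, of which 89 (67.9%) were higher, a smaller share than the 84.8% of all entries over models. Apart from the fewer models, entries or libraries that some settings use, the cause was not tested.

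With the replicate block 1558 hosts were higher and 1484 lower, and 258 and 8 entries. Among the named hosts it added calls for Cdh13, Erbb4, Immp2l, Plppr5, Cmss1 and Mybpc3 and changed no other call. edgeR with the block, chosen after seeing the data as was limma without the trend for the entries, gave 1440 and 1555 hosts. Signs turned for some hosts that were not called, namely Camk1d (0.506 with ERCC scaling, -0.869 to 0.449 without a library), Kcnj3 (-0.205 to 0.43 without a library), Kcnq1 (-0.222 to 0.569 without a library), Trim37 (0.47 with ERCC scaling) and Mybpc3 (0.00265 with ERCC scaling). Sdk1, which was called lower, turned to 0.396 with ERCC scaling. The long-read table gives no reads per model, which limits what single models can show.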
